A study of Mus musculus with 2 samples.

Results

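The genes described here encode the core machinery that transcribes nuclear DNA: the subunits of RNA polymerases I, II and III, the Mediator complex, TFIID and the other general transcription factors, and the Supt elongation factors and histone chaperones. They were chosen by name alone, as every gene whose symbol begins with Polr1, Polr2 or Polr3, with Med, Taf or Supt followed by a digit, or with Gtf2 or Gtf3. The deposited plus tables list 102 such genes of 8262 named genes, 77 in replicate 1 and 100 in replicate 2. A site was a listed position with at least 20 reads in replicate 2, and replicate 1 values were added where the same transcript and position was listed there. By this rule 173 of 16112 sites lay in 57 of the 102 genes. Of the 173 sites, 130 were listed in replicate 1 at any coverage, and 61 of them, in 31 genes, had at least 20 reads in each library.

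The data are 2 direct RNA libraries from mouse retinal organoids, tissue aggregates grown from pluripotent stem cells. Both came from wild-type (WT) organoids of the Rx:GFP line, in which green fluorescent protein reports the eye-field gene Rx (Rax), sampled on day 6 of differentiation after treatment with AGN (0.1 µM) throughout, and they form 1 group (n = 2). Poly(A) RNA was read without copying, so that N6-methyladenosine (m6A) is inferred from the pore current, and for each position the tables give the fraction of reads scored as modified and the coverage in reads. The labels put both in the same batch and do not say whether they are separate cultures, so their spread may be technical, and there was no second condition to compare with.

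Depth over the series was modest. Median coverage of sites in replicate 2 was 38 reads for the transcription genes (quartiles 26 and 72) and 36 for all other genes (26 and 62). Of 8 eye-field and retinal progenitor markers, 7 were listed in each library, Rax with up to 61 and 80 reads. None of 4 pluripotency, 2 endoderm or 2 mesoderm markers was listed, while Mitf of the pigment epithelium reached 13 reads in replicate 2. Why a marker was unlisted was not tested, and the lists hold no expression levels. All listed positions lie on 4 motifs of 5 bases, written in DNA letters as deposited, with the adenosine at the centre of the m6A consensus in capitals. They are shown because the fraction differs between motifs, and most comparisons below are made within a motif. Which base of the motif the listed position marks is not stated.
motif 1: ggAca
motif 2: ggAcc
motif 3: ggAct
motif 4: agAct

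As background, RNA polymerase II makes mRNA, polymerase I makes the ribosomal RNA precursor and polymerase III makes tRNA and other small RNAs, and several small subunits are common to all of them. TFIID binds the core promoter, the other factors load and open the polymerase there, and Mediator carries signals from enhancer-bound activators to polymerase II. m6A is placed on mRNA during transcription by a METTL3-containing writer and is known to affect mRNA turnover, so the transcripts of this machinery are themselves possible targets.

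The transcription genes as a whole carried fractions much like those of other genes. The median fraction over their sites was 0.375 in replicate 2 and 0.372 in replicate 1, against 0.345 and 0.375 for all other genes. A fraction of at least 0.5 was seen at 65 of 173 sites in replicate 2, or 37.6%, where the share over all other genes was 37.5%. In replicate 1 the numbers were 59 of 130 sites and 45.4%, against 42.4% of other genes' sites. Very high fractions, of at least 0.9, were listed at 23 of 173 sites (13.3%, other genes 10.6%) and fractions of at most 0.1 at 28 (16.2%, other genes 16.7%). These shares are near the background and single out nothing about the transcription genes.

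Composition by motif was also close to that of other genes. GGACA made up 35.5% ± 1.99 of the transcription genes' sites (SD, n = 2) and 36.5% ± 1.25 of all others. The share of GGACT was 24.1% ± 0.305 (other genes 24.6% ± 0.608) and that of GGACC 20.7% ± 0.981 (other genes 21.55% ± 0.801). AGACT held 19.7% ± 0.707 (SD over the same 2 libraries), above the 17.35% ± 1.06 of other genes by more than either SD. In replicate 2 the 95% Wilson intervals were 27.5% to 41.4% for GGACA and 14.9% to 26.8% for AGACT, and they hold the other genes' shares of 35.6% and 18.1%. Such intervals cover counting error only, and sites of a gene are not independent.

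Within a motif, GGACC was the one at which the transcription genes lay above other genes by more than the spread between libraries. Their median fraction there was 0.362 (26 sites) in replicate 1 and 0.375 (37 sites) in replicate 2, against 0.250 and 0.231, a difference of 0.128 ± 0.0226 (SD, n = 2). The size of the difference depends on the minimum. It was 0.0096 ± 0.0680 with no coverage minimum, 0.144 ± 0.0268 with 50 reads in replicate 2 and 0.0845 ± 0.0185 with 20 reads in both. A GGACC fraction of at least 0.5 was listed at 8 of 37 sites in replicate 2, or 21.6% against 21.4% of other genes, and at 12 of 26 in replicate 1, or 46.2% against 25.4%. The libraries thus agreed on the median but not on the share of high GGACC sites. At GGACA the medians were 0.710 over 48 sites and 0.75 over 59 sites, and the difference from other genes, 0.0417 ± 0.0588, was smaller than its spread. Its direction turned at depth, to -0.0812 ± 0.00481 with 50 reads in replicate 2 and -0.0884 ± 0.0636 with 20 reads in both. There 38 of 59 sites had at least 0.5 in replicate 2, or 64.4% against 64.1%. At GGACT the difference was -0.0220 ± 0.0397, and its direction was not settled, with -0.0778 ± 0.0134 at 20 reads in both and 0.0144 ± 0.0389 with each gene counted once. At AGACT the medians of 0.143 over 25 sites and 0.225 over 35 sites were below the 0.255 and 0.263 of other genes, a difference of -0.0751 ± 0.0528, larger than its SD but by little. The libraries share most of their sites, so these SDs hold no spread between genes. With 2 libraries an exact paired permutation test cannot give a p-value under 0.5, so no test was made.

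**Figure D1:**
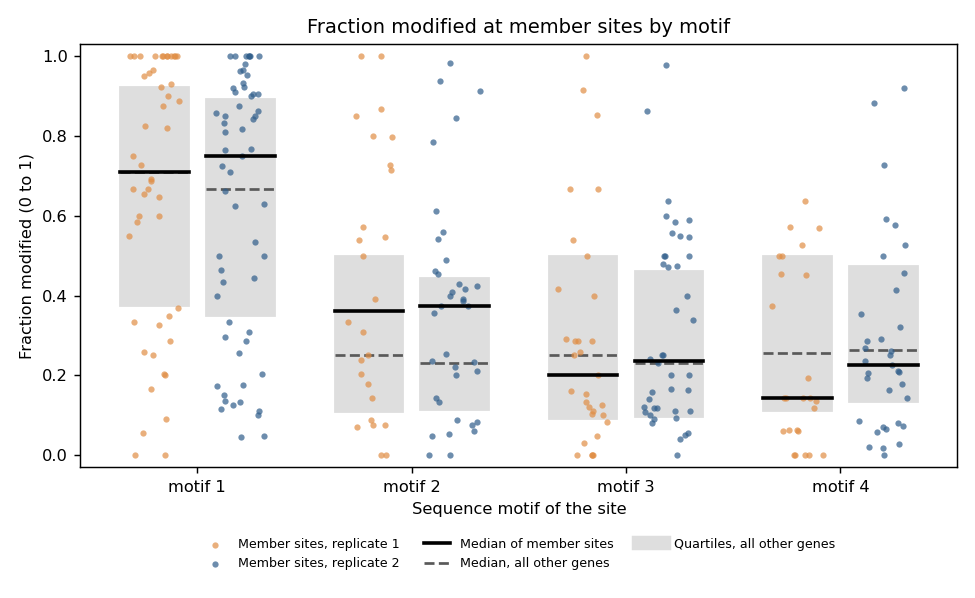
Fraction modified (0 to 1) at every site of the transcription genes, by motif as numbered in the text, with replicate 1 in orange and replicate 2 in blue. Black bars are medians of these sites, dashed bars and grey boxes the median and quartiles of all other genes. At motif 2 the black bars, 0.362 and 0.375, lie above the dashed ones, 0.250 and 0.231.

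The RNA polymerase genes had 45 sites in 15 of 27 listed genes, of which 19 lay above the motif median of other genes in replicate 2 and 15 of 33 in replicate 1, where 49.5% and 48.9% of other genes' sites lie above it. At GGACA 4 of 14 lay above in replicate 2 and 5 of 13 in replicate 1, whereas at GGACC 6 of 9 and 4 of 7 did. Gene coordinates are given as the tables list them, with a build that is not settled, and of any pair of values the first is replicate 1 unless stated. The deepest record was that of Polr2m (chromosome 9, 71385719 to 71393217), which encodes Gdown1, a protein that joins polymerase II and makes it depend on Mediator. Its 7 sites had 196 to 300 reads in replicate 2, and the 6 listed in replicate 1 had 94 to 137. Its GGACC at position 533 of transcript ENSMUST00000034720.11 had a fraction of 0.797 in replicate 1 and 0.846 in replicate 2. An AGACT at position 567, 34 bases further on, had 0.0615 and 0.0811. High and low positions thus stood close together on 1 transcript, and they did so in each library. The GGACA at 1341 had 0.655 and 0.630, that at 1686 had 0.548 and 0.533, and that at 1801 had 0.888 and 0.849. The last of these was above the one at 1686 by 0.339 in replicate 1 and by 0.315 in replicate 2. Over the 6 sites the mean was 0.508 ± 0.00806 (SD, n = 2). Single sites differed between the libraries by up to 0.0798, at an AGACT in position 1139 with 0.0645 and 0.144.

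Polr2b (chromosome 5, 77457994 to 77497171) encodes the second-largest subunit, which forms the active centre together with Polr2a. It had 6 sites with 40 to 96 reads in replicate 2. A GGACA at position 1198 had a fraction of 1 over 18 reads and 0.951 over 43 reads, while the GGACA at position 2250 had 0.2 over 23 reads and 0.286 over 54 reads. The same motif was thus nearly fully modified at one position and mostly unmodified at another on the same transcript. The GGACC sites at 3180 and 3661 had 0.714 and 0.143 in replicate 1, and 0.558 and 0.255 in replicate 2. Polr2a, the largest subunit, was listed at 15 positions in replicate 2 with at most 18 reads, and not in replicate 1, so it gave no site.

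The remaining polymerase II subunits had 1 or 2 sites each. Polr2i had a GGACC with 0.868 over 45 reads and 0.938 over 74 reads. Polr2c had a GGACT at position 367 with 0.258 and 0.242, and Polr2d an AGACT with 0.194 and 0.225. Polr2j was not listed in replicate 1, although its AGACT at position 362 had 148 reads and a fraction of 0.237 in replicate 2. An AGACT at position 84 of the same transcript had 20 reads and 0.882.

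Subunits shared by all the polymerases had the highest median coverage of any group, 125 reads in replicate 2. Of their 6 sites, in 3 genes, 5 lay below the motif medians of other genes in each library and 1 above. Of other genes' sites, 49.5% lay above in replicate 2 and 48.9% in replicate 1. The group is small, and 4 of the 6 sites were on 1 transcript of Polr2e. Polr2h (chromosome 16, 20536415 to 20541017) had the lowest GGACA site of the transcription genes with 20 or more reads in both, with 0.0548 (86 reads) in replicate 1 and 0.0488 (153 reads) in replicate 2. Other genes had a GGACA median of 0.710 and 0.667. Polr2f had a GGACA at position 82 with 0.370 over 94 reads and 0.433 over 127 reads. In Polr2e (chromosome 10, 79871783 to 79875629) the GGACA sites were high, with 0.647 and 0.662 at position 294 and 0.820 and 0.863 at position 516. Sites further on were low. The GGACC site in position 687 had 0.0877 and 0.144, and the GGACT site in position 1114 had 0.0308 and 0.0556. By the mean of the libraries that GGACT was the lowest of its motif among the transcription genes with 20 reads in both, next to one of Med28 that was lower in replicate 2. All 4 Polr2e sites were higher in replicate 2, by 0.0147 to 0.0565.

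Polymerase I and III subunits mostly had fewer reads. Polr1d (chromosome 5, 147013860 to 147048407), common to polymerases I and III, had 3 sites on 1 transcript with 59 to 74 reads and fractions from 0.135 to 0.333. Polr1h had a GGACA with 0.167 over 29 reads and 0.204 over 70 reads, and Polr1f a GGACA with 1 over 6 reads and 0.923 over 20 reads. Polr3k (chromosome 2, 181506130 to 181512623), a small polymerase III subunit, was the gene in which the libraries differed most at 20 reads in both. Its GGACT at position 458 had 0.852 (50 reads) in replicate 1 and 0.549 (95 reads) in replicate 2. The GGACA at position 1498 had 0.824 over 22 reads and 0.5 over 47 reads. Both fell by 0.303 and 0.324 respectively from replicate 1 to replicate 2, and these were the only sites of the transcription genes with 20 reads in both that differed by more than 0.2. Coverage of this transcript also fell from 95 reads at position 432 to 47 at position 1498 in replicate 2, against the usual direction. Position 432, with the same depth as position 458, differed by less, with 0.259 in replicate 1 and 0.172 in replicate 2. Polr3g, with 4 GGACT sites of 21 to 26 reads in replicate 2, had fractions from 0.118 to 0.5 there.

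**Figure D2:**
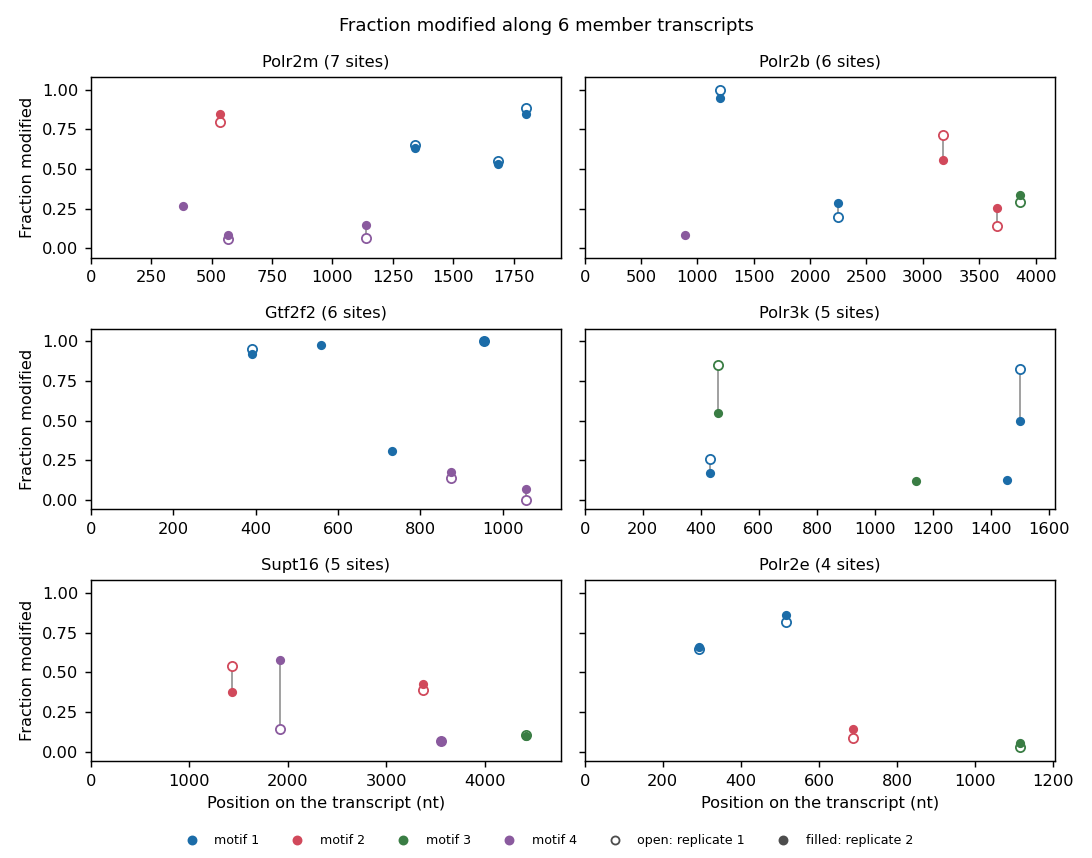
Fraction modified (vertical axis, 0 to 1) against position on the transcript in nucleotides for 6 genes, with replicate 2 filled, replicate 1 open and motifs by colour. Grey lines join the libraries at a site. In Polr2m the pairs of circles nearly coincide, whereas 2 sites of Polr3k fell by 0.303 and 0.324 from replicate 1 to replicate 2.

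Mediator, whose head, middle and tail modules bind the polymerase and activators, had 46 sites in 17 of 27 listed genes. In replicate 2, 29 of the 46 lay above the motif median of other genes, but in replicate 1 18 of 35 did, beside 49.5% and 48.9% of other genes' sites. Med25 of the tail (chromosome 7, 44526189 to 44542136) had 9 sites on 2 transcripts, more than any other transcription gene when both transcripts are counted, while Gtf3c5 had 8 on 1 transcript. On ENSMUST00000003049.7 they ran from 0.457 to 0.850 in replicate 2, and on ENSMUST00000208253.1, with 24 reads throughout, from 0.150 to 0.842. The GGACC at position 1408 had 0.727 over 22 reads and 0.542 over 41 reads, the largest difference at 20 reads in both after those of Polr3k.

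Small subunits grouped here with the tail were among the most deeply read of the complex and differed widely. Med30 (chromosome 15, 52575804 to 52593960) had the highest GGACC of the transcription genes with 20 reads in both, at position 46, with 1 over 55 reads and 0.983 over 63 reads. Its other GGACC, 259 bases on at position 305, had 0.238 over 65 reads and 0.392 over 84 reads. This was the widest separation of a same-motif pair with 20 reads in both, and it was at least 0.591 in either library. Med29 (chromosome 7, 28085571 to 28092133) was high at each site listed in both libraries, with 0.957 and 0.905 at a GGACA and 0.914 and 0.862 at a GGACT, the highest GGACT of the transcription genes with 20 reads in both. Replicate 1 alone listed AGACT positions of the same Med29 transcript that were low, with 0.154 over 50 reads at 260 and 0.0488 over 55 reads at 608. Med28 (chromosome 5, 45677571 to 45686618) had 1 site, a GGACT, with 0.0492 over 70 reads and 0.0410 over 146 reads. The GGACT sites of Med29 and Med28 were thus at opposite ends of the range, each with at least 55 reads per library.

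In the middle module Med4 (chromosome 14, 73747465 to 73756289) had an AGACT at position 1027 with 0.452 over 41 reads and 0.592 over 66 reads, and a GGACT at position 237 with 0.160 and 0.0930. Med9 had a pair of GGACA sites 6 bases apart, at positions 280 and 286, with 1 and 0.692 over 19 reads in replicate 1 and 1 and 0.710 over 49 reads in replicate 2. The order and the size of that gap were alike in both libraries, although fewer than 20 reads support it in replicate 1. In the head module Med8 had a GGACA with 0.286 and 0.257, and Med17, the module's central subunit, had the AGACT with the lowest mean among those with 20 reads in both, 0 over 20 reads and 0.0294 over 42 reads. The large subunits Med1, Med12, Med13 and Med14, whose highest coverage was 6 to 9 reads in replicate 2, gave no site.

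TFIID genes often stood above the motif medians of other genes, although nearly all their sites were shallow. In replicate 2, 15 of 18 sites in 7 genes did so, and in replicate 1 9 of 13, beside 49.5% and 48.9% of other genes' sites. The TFIID sites' median difference from the motif medians was 0.192 in replicate 2 and 0.165 in replicate 1. TFIID did not stand alone. The TFIIIA and TFIIIC genes had a median difference of 0.190 in each library, with 9 of 13 and 6 of 9 sites above in replicates 2 and 1. Of those 13 sites, 8 were in Gtf3c5, at 22 to 27 reads in replicate 2. With no coverage minimum 59 of 110 (53.6%) lay above in replicate 2 and 12 of 21 (57.1%) in replicate 1. With 20 reads in both a single site of this group remained, above in replicate 2 alone. The Mediator tail had median differences of 0.183 and 0.250 in replicates 2 and 1, with 14 of 21 and 9 of 15 sites above. The Mediator middle had 10 of 14 and 7 of 10 above. The Mediator head did not lie above, with median differences of -0.0549 and -0.25, and 5 of 11 and 2 of 10 sites above. Taf6 had a GGACA and a GGACT site on each of 2 transcripts at a constant offset of 4 bases. With 1 transcript per gene the TFIID count became 12 of 15 in replicate 2. With no coverage minimum it was 37 of 61 in replicate 2, or 60.7%. A single TFIID site had 20 reads in both libraries, so replicate agreement at depth rests on it alone. It belongs to Taf10 (chromosome 7, 105388600 to 105393568), a histone-fold subunit shared with the SAGA coactivator, whose GGACC at position 70 had 0.849 over 109 reads and 0.912 over 178 reads.

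Other TFIID subunits followed with fewer reads. Taf11 had a GGACT at position 1826 with 1 over 16 reads and 0.977 over 45 reads, and an AGACT at 1683 with 0.455 and 0.321. Taf9 had a GGACA with 1 over 11 reads and 0.9 over 36 reads. Taf7 had a GGACA with 0.875 over 10 reads and 0.933 over 22 reads. In Taf6 (chromosome 5, 138176879 to 138185713) the GGACA sites at positions 990 and 2073 had 0 and 0.75 in replicate 1, and 0.1 and 0.767 in replicate 2. A GGACT at 2096 of that transcript had 0 over 17 reads and 0.6 over 37 reads, a difference equalled only by a GGACC of Taf6l, with 1 over 9 reads and 0.4 over 22 reads. Taf1, Taf2, Taf3, Taf4, Taf5 and Taf8 were listed in replicate 2 with at most 17 reads. The SAGA gene Taf6l had 5 sites of 21 to 23 reads in replicate 2, of which 4 were listed in replicate 1 with 7 to 10, with fractions from 0.05 to 0.833 in replicate 2.

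**Figure D3:**
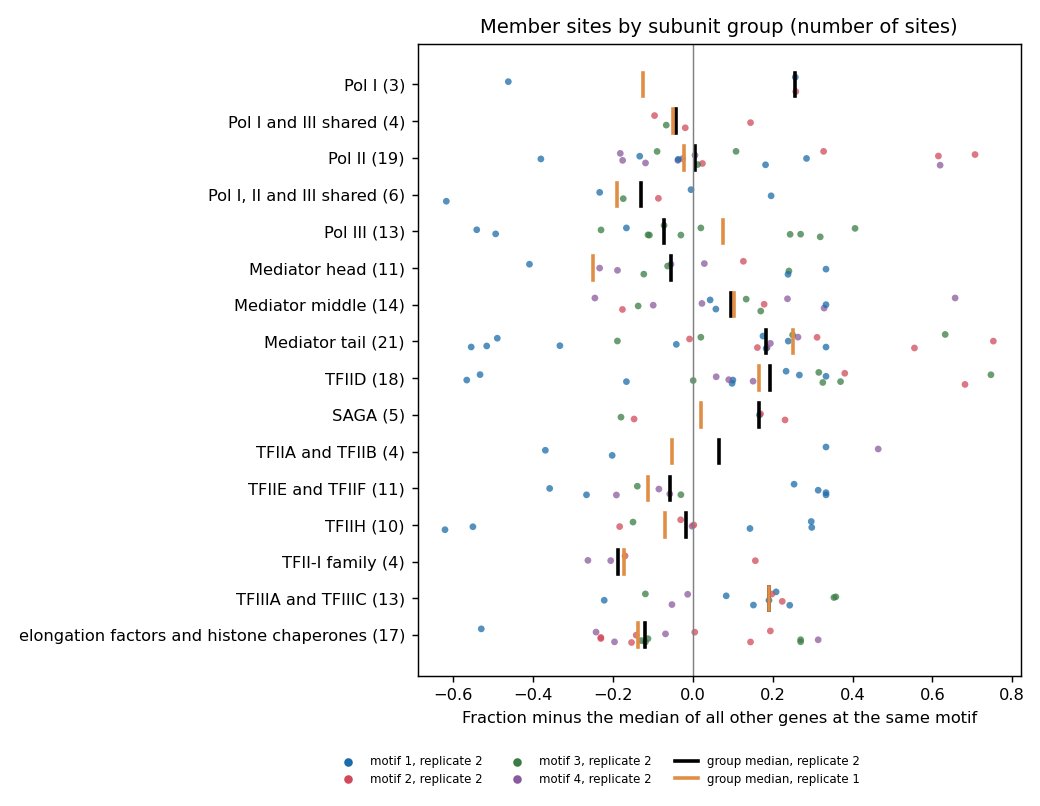
Difference of each site's fraction in replicate 2 from the median of all other genes at the same motif, by subunit group, with the number of sites in brackets and motifs by colour. Black and orange bars are the group medians in replicates 2 and 1. The TFIID medians of 0.192 and 0.165 lie to the right of 0 and those of the elongation factors and histone chaperones, -0.119 and -0.138, which include the 4 sites of Supt4a, to the left.

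The other general factors had 42 sites in 13 of 21 listed genes, 20 of them above the motif median of other genes in replicate 2 and 15 of 34 in replicate 1, beside 49.5% and 48.9% of other genes' sites. Their GGACA sites had a median of 0.926 over 16 sites in replicate 1 and 0.838 over 20 sites in replicate 2. Other genes had 0.710 and 0.667. These GGACA sites ranged from 0.0455 to 1 in replicate 2, where 13 of 20 lay above the motif median. In replicate 1, 10 of 16 did. At AGACT, where the transcription genes as a whole lay below other genes, 1 of 9 sites lay above the motif median in replicate 2 and 2 of 7 in replicate 1, and at GGACT 2 of 6 and 1 of 5 did. Gtf2b (chromosome 3, 142470806 to 142489367), which is TFIIB and bridges the promoter and polymerase II, had a GGACA at position 605 with 0.964 over 30 reads and 1 over 54 reads. Its GGACA at position 754 had 0.35 and 0.464, lower by 0.614 in replicate 1 and by 0.536 in replicate 2. Gtf2f2 (chromosome 14, 76134377 to 76248305), the small subunit of TFIIF, had the highest GGACA with 20 reads in both, at position 954, with 1 over 29 reads and 1 over 69 reads. Another at position 391 had 0.95 and 0.92. Listed in replicate 2 alone were one at 558, with 0.980 over 62 reads, and one at 732, with 0.308 over 65 reads. Its AGACT sites at 875 and 1056 stayed at or below 0.178. Gtf2e2 of TFIIE also had a nearly fully modified GGACA, with 0.923 over 21 reads and 1 over 53 reads.

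TFIIH, which opens the promoter and also serves DNA repair, showed fractions at both ends. Gtf2h5 (chromosome 17, 6130061 to 6136792) was low at each of 3 sites with 69 to 106 reads, from 0.0471 to 0.233, and held the lowest GGACC with 20 reads in both, 0.0702 and 0.0471 at position 535. Gtf2h1 had GGACA sites at 420 and 1532 with 0.0909 and 1 in replicate 1, and 0.0455 and 0.964 in replicate 2. That separation, at least 0.909 in either library, was the widest of the same-motif pairs when the smaller of both libraries' differences is counted, with 16 and 19 reads in replicate 1. Gtf2a2 of TFIIA held the highest AGACT with 20 reads in both, 0.568 over 72 reads and 0.727 over 104 reads. Gtf2i (chromosome 5, 134266688 to 134343614), which encodes the multifunctional factor TFII-I, had 4 sites on 2 transcripts, among them an AGACT with a fraction of 0 over 18 and 59 reads.

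Among polymerase III factors, Gtf3a, the TFIIIA protein, had a GGACA with 0.688 over 25 reads and 0.818 over 42 reads. The TFIIIC gene Gtf3c5 (chromosome 2, 28456323 to 28473763) had 8 sites on 1 transcript, with 22 to 27 reads in replicate 2, of which 6 were listed in replicate 1 with 11 or 12. They spanned 0.111 to 0.909 in replicate 2, and its 4 GGACA sites there lay between 0.444 and 0.909.

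The Supt elongation factors and histone chaperones act after initiation. Of 17 sites in 4 genes, 6 lay above the motif median of other genes in replicate 2, and 3 of 11 did in replicate 1, beside 49.5% and 48.9% of other genes' sites. This rests on Supt4a, without which 6 of 13 (46.2%) and 3 of 7 (42.9%) lay above, near the shares of other genes. Supt4a (chromosome 11, 87628378 to 87634449), which pairs with Supt5 in the elongation factor DSIF, had 4 sites from position 472 to position 667, with 79 to 83 reads in replicate 1 and 113 to 115 in replicate 2. Their fractions lay between 0.0204 and 0.194, with a mean of 0.0986 ± 0.00711 (SD, n = 2). This was the narrowest range among the 21 transcripts of the transcription genes with at least 4 sites, 0.174 in replicate 2 against a median range of 0.667 in these and 0.782 in other genes' transcripts. Mouse has a near-identical Supt4b gene, which was not listed, so the assignment of these reads is uncertain. Supt16 (chromosome 14, 52397871 to 52434873), a subunit of the histone chaperone FACT, had 2 sites at which the libraries nearly coincided, an AGACT at 3551 with 0.0645 and 0.0667 and a GGACT at 4417 with 0.103 and 0.101, over 34 reads in replicate 1 and 119 and 126 in replicate 2. In all, 3 of its 5 sites lay above the motif median in replicate 2, unlike those of Supt4a. Its GGACC at 3370 was also close between the libraries and lay above the motif median, with 0.391 over 32 reads and 0.425 over 117 reads, and another at 1436 had 0.538 over 15 reads and 0.375 over 38 reads. The libraries differed at its AGACT at 1924, with 0.143 over 17 reads and 0.577 over 43 reads, so that it lay above the motif median in replicate 2 alone. Supt6 (chromosome 11, 78097572 to 78136813), another histone chaperone, had 6 sites of 21 to 35 reads in replicate 2, from 0 to 0.5, of which replicate 1 listed 2 with 5 reads each.

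Same-motif pairs on 1 transcript hold motif, transcript and library constant. Among 35 such pairs listed in both libraries, 30 had the same direction in both, as did 4799 of 6051 pairs in other genes, and 5 were at least 0.5 apart in both, which is 14.3% against 16.8% in other genes. The 5 pairs lie in Gtf2h1, Taf6, Polr2b, Med30 and Gtf2b, and those of Med30 and Gtf2b had 20 reads in both libraries. Wide separation within a transcript was therefore about as frequent here as elsewhere.

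Agreement between the libraries was closer at sites with 20 reads in both. At the 130 sites listed in both, Pearson's r was 0.898 across sites and Spearman's rho 0.882, and 18 sites (13.8%) differed by more than 0.2, against 15.7% of other genes' sites. With 20 reads in both, r was 0.958 and rho 0.947 over 61 sites, and 2 (3.28%) differed by more than 0.2, against 5.96%. With 50 in both it was 1 of 32 (3.12%), against 1.07%, with r 0.967 and rho 0.920, so the measures did not all improve from 20 to 50 reads. Of the 69 sites under 20 reads in replicate 1, 16 (23.2%) differed so far, against 23.0%. The median difference, replicate 2 minus replicate 1, was 0 at the 130 sites, with 61 higher, 63 lower and 6 equal. These sites share libraries and genes and are not independent replicates.

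**Figure D4:**
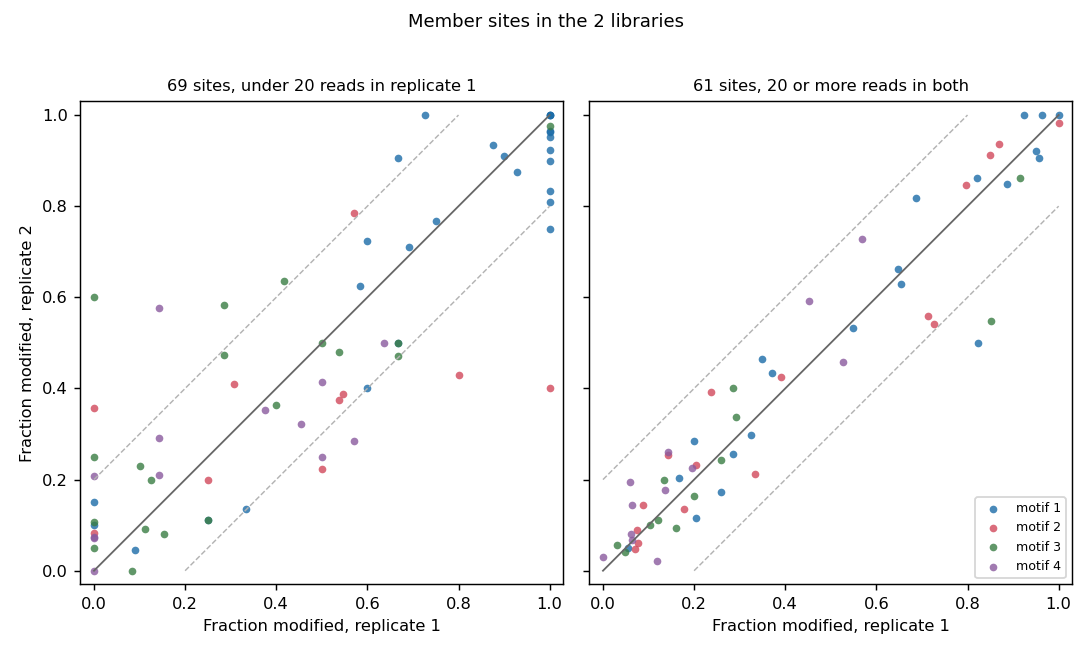
Fraction modified in replicate 2 against replicate 1 at the sites of the transcription genes listed in both libraries, split by whether replicate 1 had 20 reads, with the dashed lines at a difference of 0.2. On the left 16 of 69 sites lie outside the dashed lines and on the right 2 of 61, both of Polr3k.

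The positions listed differed between the libraries. Replicate 1 did not list 43 of the 173 sites (24.9%, other genes 25.3%), and 15 of the 43 lay on transcripts that had 20 or more reads at another position there (34.9%, other genes 31.5%). An AGACT at position 382 of Polr2m had 196 reads in replicate 2 and was not listed in replicate 1, where the transcript reached 137 reads. The reverse was also seen. Of 80 positions with 20 reads in replicate 1, replicate 2 did not list 19 (23.8%, other genes 18.96%), among them a GGACT at position 415 of Polr2f with 98 reads and a fraction of 0.472. On transcript ENSMUST00000110557.4 of Polr1d, replicate 1 listed a GGACC at position 663 with 92 reads and replicate 2 a GGACC at position 654 with 128 reads, and neither library listed the other's. The sources used here do not say what decides whether a position is listed.

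Coverage was mostly a little higher toward the end of a transcript. The last site had more reads than the first on 34 of 44 transcripts with at least 2 sites in replicate 2 (77.3%, other genes 76.7%), but the median ratio of last to first was 1.06 (other genes 1.13). Among the largest rises were those of Supt16, with 38 and 126 reads, and Polr2b, with 40 and 96. Replicate 2 had a median of 2 times the reads of replicate 1 over 55 transcripts (other genes 2.22). The minimum of 20 reads was set in replicate 2 alone. Over sites, the median ratio was 2.15 at the 130 listed in both, 1.78 at the 61 with 20 reads in both and 1.55 at the 32 with 50, and the part of the minimum in this was not tested. Over transcripts, the ratio was 1.77 for 26 transcripts with their last site within 1000 bases of the start and 2.27 for 14 with it beyond 2000 bases, and 1.79 and 2.73 for other genes.

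In all, 45 of the 102 genes had no site, with at most 5 to 19 reads in replicate 2 where they were listed there. Polr2k and the antisense gene Polr1has were listed in replicate 1 alone, with 18 and 6 reads. A RefSeq list holds 113 protein-coding symbols that fit the naming rule, and 15 of these were listed in neither library, among them Polr3a, Polr2g, Polr2l, Med21 and Polr1c. At the minimum itself, 13 sites with 20 or 21 reads had a median fraction of 0.357, and 26 positions with 18 or 19 reads had 0.279. Of 100 genes listed in replicate 2, 57.0% had a site, against 48.5% of other genes.

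**Figure D5:**
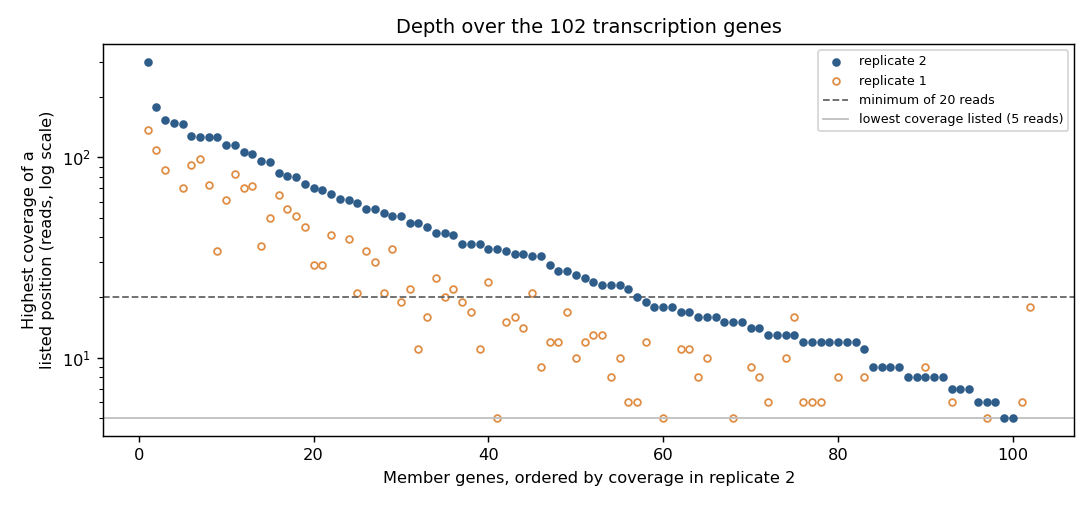
Highest coverage of any listed position (reads, log scale) for each of the 102 genes, ordered by replicate 2 (filled) with replicate 1 open. The dashed line is the minimum of 20 reads, which 57 genes reached in replicate 2.

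A list of 55 other transcription genes outside the naming rule held TBP and polymerase III initiation factors, the Mediator and TFIIH kinases, the elongation complexes NELF and PAF, and polymerase assembly factors. Of these, 44 were listed in replicate 2 and 24 had 105 sites. Of these sites, 48 lay above the motif median of other genes in replicate 2, and 41 of 82 in replicate 1, beside 49.5% and 48.9%. Their GGACC medians, 0.250 in replicate 1 and 0.211 in replicate 2, were not above those of all other genes, unlike the medians of the genes chosen by name. Ssrp1, the FACT partner of Supt16, was the deepest with up to 204 reads, and its 7 sites ran from 0.0588 to 0.922. Tbp itself, the TATA-binding subunit of TFIID, had 4 sites with at most 24 reads, from 0.125 to 0.667.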

How the data were processed

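Both libraries were direct RNA sequencing runs (SQK-RNA002 kit, 1 flow cell each). The coverage deposited for each transcript position is a count of reads, and the deposited fraction modified lies between 0 and 1, per the file headers. Base caller, aligner and modification caller are not given in the sources used here, and the submitters' processing notes name mm10. Of 98 genes matched to RefSeq (GRCm38.p6) by symbol, 2 had a start within 1000 bases of the deposited one, so the build of the printed coordinates is not settled, and placement in exons or untranslated regions was not analysed here. The fraction's denominator is not stated: 34.4% of these genes' fractions in replicate 2 were multiples of 1 over the coverage (tolerance 5e-05), so no interval was set around a fraction.

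The members and lists were chosen with earlier results of these data known. Named with values were, by rule, the leading gene of each subunit group, the 12 genes with most sites, the extremes of each motif, the widest same-motif pairs and replicate differences, and the 5 deepest genes (28 genes). Other genes named, such as Med9, Polr2i, Taf11 and Gtf2h1, were chosen after their values were seen. Listed positions without a gene name (219 and 533) were left out. No test across conditions was possible. The scripts (Python 3.11.15, pandas 2.3.3) recovered known shifts in simulated data. Those data had a single level per motif and binomial noise, without the real spread of sites, so this checked the code only. The minus tables held none of these genes. Values of some single genes are not reported here.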

Additional observations from a re-analysis of the deposited data

How the results depend on the processing

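With no coverage minimum there were 622 sites in 100 genes, 18 wide same-motif pairs and 22.2% of sites past a difference of 0.2 between libraries. With 50 reads in replicate 2 there were 68 sites in 30 genes, 2 pairs and 1.79%, and with 20 reads in both libraries 61 sites in 31 genes, 2 pairs and 3.28%. From replicate 1 alone there were 80 sites in 33 genes. The GGACC difference from other genes was 0.0096 with no minimum, 0.144 with 50 reads and 0.0845 with 20 reads in both. It was 0.191 with 1 transcript per gene and 0.168 with each gene counted once. The GGACA difference became -0.0812 with 50 reads and -0.0884 with 20 reads in both, so its sign is not settled, and the GGACT difference became -0.0778 with 20 reads in both but 0.00175 with 1 transcript per gene and 0.0144 with each gene once. The AGACT difference stayed within 1 SD under the alternatives that keep both libraries. Without each replicate the differences ran from 0.0001 to 0.0833 at GGACA, 0.112 to 0.144 at GGACC, -0.0500 to 0.0061 at GGACT and -0.112 to -0.0378 at AGACT. Motif shares with no minimum were 37.5% GGACA, 18.6% GGACC, 22.6% GGACT and 21.3% AGACT. With 50 reads they were 30.8%, 26.6%, 21.01% and 21.6%. With 20 reads in both GGACC was 26.2% and GGACT 19.7%, and with 1 transcript per gene GGACC was 19.02% and AGACT 20.9%. The causes were not tested, beyond the fewer or more sites that each minimum leaves. Alternatives for named genes and subunit groups were chosen after seeing the data. Of the named genes' means, 7 of 23 moved by over 1 SD with 20 reads in both and 5 of 20 with 50 reads. The TFIID count could not be had at depth, since 1 site remained with 20 reads in both, whereas 1 of 7 Supt sites, 4 of them of Supt4a, lay above the motif median there in each library, beside 39.3% and 42.6% of the 61 sites of all the transcription genes. No paired analysis was possible because the libraries form 1 group. At fewer than 20 reads a fraction is coarse, and 16 of 69 such sites differed by more than 0.2 between libraries.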
